A study of Mus musculus with 24 samples.

Results

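The effect of 4-hydroxytamoxifen (4-OHT) on the transcriptome of the *Eset2* mutant fibroblast clone A4 was examined in 6 of the 24 RNA-seq libraries of the series, the 3 of untreated A4 cells (*E2*) and the 3 of the same clone after 4-OHT (*E1E2*). The members were chosen by the line and treatment in the sample titles, and all genes and all repeat elements of the count table were described. The cells are mouse embryonic fibroblasts (MEFs) of the *E1c* line, in which *Eset1* (*Setdb1*) is floxed and a tamoxifen-inducible Cre is present. A4 is 1 CRISPR clone of this line with a frameshift in *Eset2* (*Setdb2*), and all 6 libraries carry the *Eset2* mutation, the floxed *Eset1* alleles and the Cre. Per the paper's methods, inducible Cre was introduced again with a puromycin resistance gene after the CRISPR step, and the lines were kept under puromycin. The Cre and the selection may therefore differ between A4 and the parent line. The *E1E2* cultures received 1 µM 4-OHT for 2 days, followed by 2 days of normal medium. The same step in the parent line, from untreated *E1c* cells (WT, 3 libraries) to 4-OHT-treated cells (*E1*, 3 libraries), was used for comparison and shares no library with the A4 step. A 4-OHT-treated line without the floxed allele or without Cre was not used here, so the drug, the Cre and the loss of *Eset1* cannot be told apart, and with 1 clone the *Eset2* mutation cannot be told apart from other features of A4.

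Eset1 and Eset2 are SET-domain proteins of the family that methylates lysine 9 of histone H3 (H3K9), and Eset1 is known for trimethylating this residue at endogenous retroviruses, where it is recruited by zinc-finger proteins and their corepressor Trim28. Endogenous retroviruses fall into the families ERV1, which includes murine leukaemia virus-like copies (MuLV) and VL30 elements, ERVK, which includes the intracisternal A-particles (IAP), ETn and MMERVK10C elements, and ERVL. Double-stranded RNA in the cytoplasm is recognised by sensors such as Mda5 (*Ifih1*) and RIG-I (*Ddx58*), which lead to interferon and to interferon-stimulated genes.

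The 6 libraries held 25698753 to 33964221 counts each, of which 14.61 to 15.93% fell in repeat elements. Expression is given as normalized counts (counts scaled to a common library size), and differences as log2 of *E1E2* over *E2* with their standard error (SE). A gene is said to have changed at an adjusted p of at most 0.01. *E2* replicate 2 stood apart from the other *E2* libraries: the chi-square per gene was 16.29 and 17.34 against replicates 1 and 3, and 5.633 between these. Replicate 2 also stood apart in *E1E2* (10.19 and 8.77, against 3.648) and in WT (64.56 and 53.98, against 4.822). In *E1* it was replicate 3 (13.53 and 23.8, against 7.027). Fibroblast markers were abundant, with *Vim* at 44300 to 49600 and *Col1a2* at 23600 to 41400 normalized counts, while the leukocyte marker *Ptprc* did not exceed 1.11 and the endothelial marker *Pecam1* did not exceed 9.51.

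The targeted genes did not separate the labels. *Setdb1* (chromosome 3, 95323525 to 95357202, GRCm38) was at 1284, 1018 and 1398 normalized counts in the libraries labelled *E2* and at 1267, 1187 and 1256 in those labelled *E1E2*. The groups overlapped, with a log2 difference of 0.0070 ± 0.0779 (SE; adjusted p = 0.992). In the parent line *Setdb1* fell by 0.57 (adjusted p = 6.82e-06), from 1612, 1478 and 1497 to 994.5, 1092 and 1007, and the difference between the steps passed the test (0.58, adjusted p = 0.000669). The count covers the whole gene, including exons outside the floxed part, so it does not show whether the allele was deleted. The paper reports that induced *Eset1* deletion was efficient by western blot of its mutant lines. Whether those extracts came from the sequenced cultures is not stated, and the direction of every comparison below rests on the labels. *Setdb2* was at 266.5, 299.5 and 317.2 in *E2* and at 292.6, 313.3 and 237.7 in *E1E2* (adjusted p = 0.699). Of the 6 H3K9 methyltransferase genes, 0 passed in edgeR and 0 in DESeq2 (1 at an unadjusted p under 0.05). Of 16 genes for Eset1 partners and HP1 proteins, *Daxx*, an H3.3 chaperone, rose (0.53, adjusted p = 6.72e-05), while *Trim28* was at 0.09 (adjusted p = 0.41). Among all genes tested 6.58% rose.

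Of 18565 genes tested, 1222 (6.58%) were higher and 996 (5.36%) lower in *E1E2* than in *E2*. With a fold change of at least 2 in addition, 430 genes (2.32%) were higher and 122 (0.657%) lower, and 75.1% of the changed genes moved by less than 2-fold. The median difference over all genes was 0.0125. In these bulk samples fewer cells of a type and less RNA per cell cannot be told apart. The parent line's step had similar numbers, 1248 genes (6.72%) higher and 1226 (6.6%) lower. The 2 steps shared 298 of the higher genes (24.4% of the A4 list and 23.9% of the parent list) and 285 of the lower genes (28.6% and 23.2%), while 95 genes higher in the A4 step were lower in the parent's and 92 went the other way. The difference of the steps, the A4 step minus that of the parent line, was above 0 at 817 genes (4.4%) and below 0 at 833 (4.49%) that passed the test. Leaving out *E2* replicate 2 left 845 higher genes, and leaving out *E1E2* replicate 3 left 663 lower genes.

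**Figure D1:**
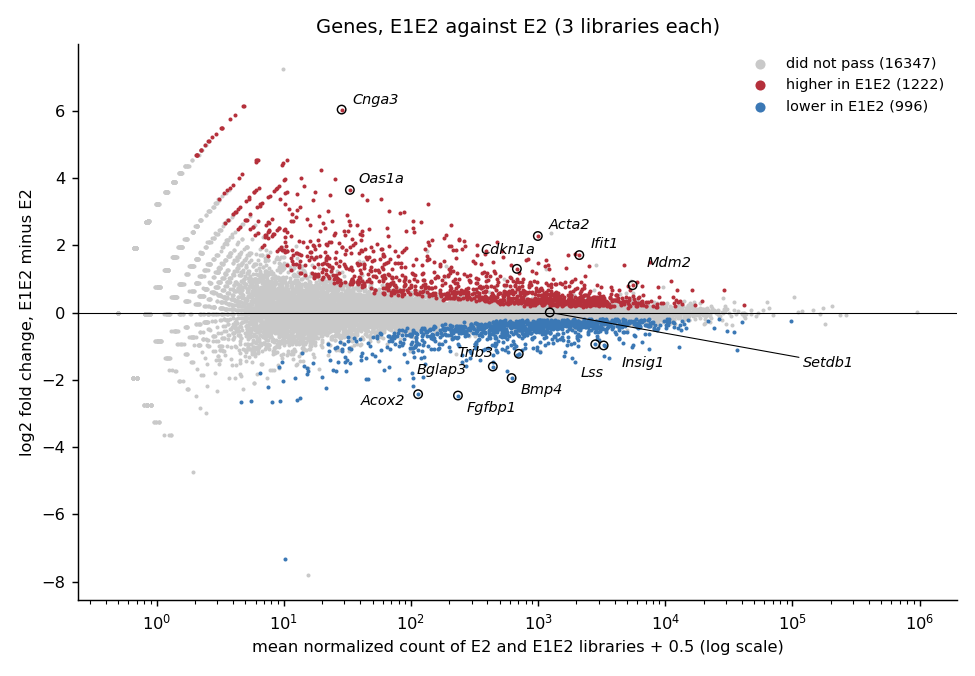
Log2 difference of *E1E2* over *E2* (y) against the mean normalized count of the 6 libraries plus 0.5 (x, log scale) for the 18565 genes tested. The 1222 higher and 996 lower genes at an adjusted p of at most 0.01 are coloured and circles mark the named genes. Most of the large rises lie at low counts.

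The 10 largest rises named here are of genes whose libraries did not overlap and whose mean was at least 50 normalized counts in the higher group. *Cnga3*, a subunit of the cone photoreceptor cation channel (chromosome 1, 37214434 to 37263384), had 1, 0 and 1 reads in the *E2* libraries against 44.33, 53.14 and 68.22 normalized counts in *E1E2*. This is a depth-corrected ratio of 77.1, with an exact 95% interval of 21 to 642 that covers counting error only. The parent line's step also raised *Cnga3* (log2 3.23, adjusted p = 0.00285). *Stmn4*, a neuronal stathmin that binds tubulin, went from 10.71, 2.69 and 7.129 to 77.83, 69.75 and 75.46 (log2 3.50 ± 0.29, adjusted p = 8.02e-09), and in the parent line it did not pass (0.05). *Ltbp2*, a latent TGF-beta binding protein of the matrix, went from 9.517, 5.381 and 9.505 to 91.62, 55.36 and 97.17 (3.35 ± 0.29), again without passing in the parent line (0.29, adjusted p = 0.298). For both genes the difference of the steps passed (adjusted p = 7.47e-05 and 1.64e-06). *Matn4* (matrilin, log2 3.39), *Ptpn22* (a lymphoid tyrosine phosphatase, 3.02), *Evpl* (envoplakin, 2.96) and *Nectin4* (a cell adhesion molecule, 2.91) followed. *Nlrc5*, the transactivator of MHC class I genes, went from 34.5, 6.278 and 20.2 to 146.8, 132.9 and 181.9. *Oas1a* (3.65) and *Usp18* (3.23), both interferon-stimulated, complete these 10.

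Among the 10 largest falls, chosen by the same rule, several were shared with the parent line. *Fgfbp1*, which releases fibroblast growth factors from the matrix (chromosome 5, 43978858 to 43981779), went from 349.8, 523.7 and 312.5 to 60.09, 90.79 and 66.16 (log2 -2.47 ± 0.20, adjusted p = 4.17e-09). It fell by 2.96 in the parent line, and the difference of the steps did not pass (adjusted p = 0.265). *Bmp4*, a secreted TGF-beta family ligand, went from 872, 1218 and 853.1 to 230.5, 266.8 and 269.8 (-1.95 ± 0.11, parent line -2.25). *Artn*, a GDNF family ligand, showed -1.90 and -1.76 in the 2 lines. The sodium channel gene *Scn3a* (-2.19, parent line -1.30) and the sodium leak channel gene *Nalcn* (-1.97, parent line -1.54) also fell in both. *Acox2*, a peroxisomal oxidase of bile acid synthesis, went from 155.8, 238.5 and 178.2 to 33.49, 39.86 and 34.11 (-2.43 ± 0.15), while in the parent line it did not pass (-0.13). *Crb2* (a polarity protein, -1.99), *Foxo6* (a forkhead factor, -1.98) and *Rubcnl* (an autophagy regulator, -1.79) were the others, and *Sgsm1* (-1.94) is described with the genes that moved in opposite directions.

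Targets of p53, the factor that arrests or kills damaged cells, were higher. Of 20 genes on the list, 14 rose and 0 fell, with a median log2 difference of 0.50 (over all genes 6.58% rose and 5.36% fell). *Trp53inp1*, a p53-induced nuclear protein, went from 391.4, 437.6 and 402.8 to 1210, 1260 and 1251 normalized counts (1.59 ± 0.07, adjusted p = 6.41e-13). *Cdkn1a*, which encodes the cyclin-dependent kinase inhibitor p21 (chromosome 17, 29090976 to 29100727), went from 430.7, 385.6 and 362.4 to 948.7, 993.1 and 963.4 (1.30 ± 0.06, adjusted p = 1.71e-12). *Mdm2*, the ubiquitin ligase for p53 and itself a p53 target, went from 4076, 3887 and 4077 to 6996, 7080 and 7107 (0.82 ± 0.04). In each of these genes the libraries within a group lay close together and the groups were far apart. They were named for the smallest p of the list, a choice that favours such a gap. *Ccng1* (cyclin G1, 0.79), the death receptor genes *Eda2r* (1.07) and *Fas* (1.39), and *Pmaip1* (Noxa, 1.19) rose as well. *Trp53* itself was at 0.18 (adjusted p = 0.104) and the apoptosis effector gene *Bax* at 0.10 (adjusted p = 0.354). In the parent line 0 of the 20 rose and 5 fell, *Cdkn1a* was at -0.02 (adjusted p = 0.914) and *Mdm2* at 0.09 (adjusted p = 0.187). The difference of the steps passed above 0 at 15 of the 20 genes, among them *Cdkn1a* (1.32, adjusted p = 4.86e-10). The 14 rises stood at 14 when any of the 6 libraries was left out.

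**Figure D2:**
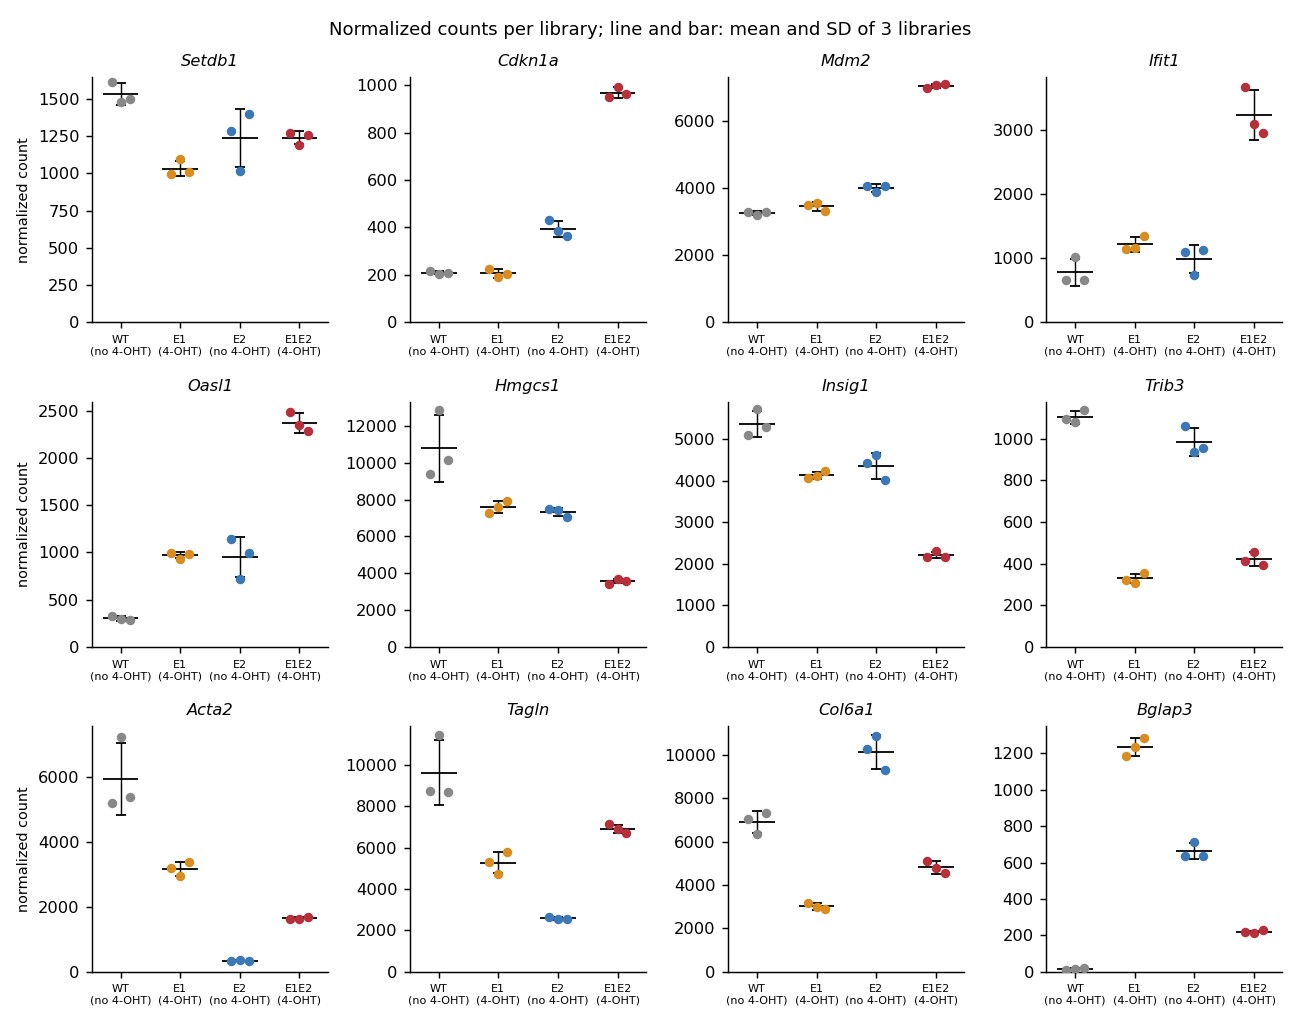
Normalized counts of 12 genes (y, linear from 0) in each library of WT, *E1*, *E2* and *E1E2* (x), with points for the 3 libraries and bars for the mean ± SD. *Cdkn1a*, *Mdm2*, *Acta2* and *Tagln* are higher in all *E1E2* than in all *E2* libraries, *Hmgcs1*, *Insig1*, *Trib3*, *Col6a1* and *Bglap3* are lower, and *Setdb1* overlaps.

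Among 9 cell cycle inhibitor genes outside the p53 list, 2 rose and 6 fell (median -0.39). *Cdkn1b*, encoding p27, went from 1261, 1464 and 1198 to 793, 871.3 and 856.9 (-0.64 ± 0.08), and *Cdkn2b* (p15, -0.59), *Cdkn2a* (-0.41), *Cdkn2c* (p18, -0.40) and the retinoblastoma-like genes *Rbl2* (-0.39) and *Rbl1* (-0.38) also fell. *Cdkn1c* (p57, 0.41) and *Rb1* (0.34) rose. Of 25 cell cycle genes, *Ccne1* (cyclin E1, 0.27) rose and 4 fell, *Cdk2* (-0.29), *Ccnb2* (cyclin B2, -0.35), *Aurkb* (-0.23) and *Cdk4* (-0.27), each by less than 2-fold, and the proliferation marker *Mki67* was at -0.18 (adjusted p = 0.119). Over all genes 6.58% rose and 5.36% fell, *Ccne1* lost its call without any 1 of 4 libraries and *Aurkb* without *E2* replicate 2 or *E1E2* replicate 1 or 3, and 2 to 4 of the 25 fell when 1 library was left out.

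Interferon-stimulated genes were higher in *E1E2*. Of 25 such genes 23 rose, 0 fell, and the median log2 difference was 1.84, against 12 rises and a median of 0.98 in the parent line. For this list and the sensors below, the share over all genes was 6.58% higher and 5.36% lower in A4. In the parent line 6.72% of all genes were higher. Summed over the list, the *E2* libraries had 18070, 9314 and 17180 normalized counts and the *E1E2* libraries 40070, 33820 and 33310. *E2* replicate 2 was the lowest, and without it 22 of the 25 rose, with a median of 1.51. Macrophage and leukocyte markers summed to 120.2 to 146.3 in *E2* and 183.8 to 232.6 in *E1E2*, with 1 of 4 higher (*Cd68*, 0.84), *Ptprc* at 0 to 1.11 and *Adgre1* at 0. *Oasl1*, an oligoadenylate synthetase-like protein, went from 1138, 721 and 992.1 to 2483, 2342 and 2283 (1.32 ± 0.11, adjusted p = 5.99e-09). *Ifit1*, which binds RNA lacking host cap methylation, went from 1103, 738.1 and 1126 to 3664, 3082 and 2942 (1.71 ± 0.16), and *Ddx60*, a helicase, from 143.9, 81.61 and 174.7 to 524.1, 510.4 and 547.8 (2.01 ± 0.17). The groups did not overlap in any of these genes, a pattern that naming by the smallest p favours. *Oas1a*, which makes the second messenger that activates RNase L, was at 7.138, 0 and 8.317 in *E2* and at 54.18, 59.79 and 66.16 in *E1E2*, and *Usp18*, a protease that removes Isg15 from proteins, at 38.07, 5.381 and 40.4 against 243.3, 258 and 234.6. *Bst2* (tetherin, 0.35, adjusted p = 0.0402) and *Stat2* (0.45, adjusted p = 0.0163) were the list members that did not pass. The A4 step exceeded the parent's at 4 genes, among them *Ifit1* (1.07), *Gbp2* (1.95) and *Ddx60* (1.23). At *Oasl1* it did not differ beyond the error (-0.36, adjusted p = 0.14), nor at *Irf7*, the interferon regulatory factor, where the steps were 1.97 and 1.96 (adjusted p = 1). Of 12 sensors of nucleic acids 8 rose (median 0.49), *Ifih1* by 1.39 (from 648.4, 565.9 and 659.4 to 1764, 1564 and 1585), *Zbp1* by 1.82, *Tlr3* by 0.97 and *Ddx58* by 0.94. *Ifih1* had 1.35 in the parent line, and the steps did not differ beyond the error (0.04, adjusted p = 0.881). For *Tlr3*, a receptor of double-stranded RNA, the A4 step was larger by 1.19 (adjusted p = 0.000754). Without *E2* replicate 2, 6 of the 12 sensors rose.

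The promoters of several of these genes hold the interferon-stimulated response element (ISRE), a binding motif of interferon regulatory factors. The letters GAAANNGAAA were searched on both strands in the 250 bases before each start, with promoter sequences from RefSeq (GRCm38.p6). Of 32851 promoters, a set that leaves out 1 chromosome, 2.98% hold the motif. Counted by gene, 12 of the 19 list genes in that set (63.2%) hold it in at least 1 promoter, and some genes have more than 1. The sequences of 4 of these genes are shown 5′ to 3′ on the strand of the gene, as a stretch that reaches to the last base before the start, with the ISRE letters in capitals. Overlapping matches form 1 run of capitals in *Isg15* and *Oas1a*, and in *Ifit1* the motif lies on the opposite strand.
Oas1a (chr5:120907526-120907645, minus strand): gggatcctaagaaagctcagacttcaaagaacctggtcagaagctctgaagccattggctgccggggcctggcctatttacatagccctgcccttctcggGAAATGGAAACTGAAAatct
Ifit1 (chr19:34640769-34640888, plus strand): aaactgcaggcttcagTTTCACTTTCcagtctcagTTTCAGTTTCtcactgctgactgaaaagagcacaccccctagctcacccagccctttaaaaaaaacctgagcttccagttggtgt
Ddx60 (chr8:61927967-61928086, plus strand): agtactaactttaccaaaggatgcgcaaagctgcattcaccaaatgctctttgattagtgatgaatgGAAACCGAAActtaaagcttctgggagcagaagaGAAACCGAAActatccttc
Isg15 (chr4:156200819-156200938, minus strand): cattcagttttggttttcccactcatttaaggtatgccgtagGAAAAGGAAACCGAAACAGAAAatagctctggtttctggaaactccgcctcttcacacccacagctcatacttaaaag
*Oasl1* holds no match in this window, and its rise is given above. *Isg15*, a ubiquitin-like modifier, rose by 1.23 ± 0.15, to 1228, 1280 and 1235 from 585.3, 439.4 and 583.4.

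Chemokine and cytokine genes that fibroblasts make under inflammatory signals moved in the same direction, with 10 of 18 higher, 0 lower and a median of 1.62. The share over all genes was 6.58% higher and 5.36% lower. *Csf1*, the macrophage growth factor, went from 7900, 6102 and 8733 to 17350, 12930 and 13310 (0.94 ± 0.12, adjusted p = 4.91e-06). *Il33*, an alarmin, went from 4.759, 0.8968 and 3.565 to 30.54, 28.79 and 31.01 (3.34 ± 0.50), *Il6* from 8.328, 1.794 and 10.69 to 25.61, 33.22 and 28.94, and the gelatinase gene *Mmp9* from 35.69, 14.35 and 34.46 to 90.63, 97.43 and 83.73 (1.73 ± 0.23). The list summed to 27810, 10120 and 27460 in *E2* and to 44430, 36090 and 36460 in *E1E2*, again with *E2* replicate 2 lowest. Without that library 11 of the 18 rose and the median was 1.07. *Ccl2*, the monocyte chemoattractant, shows the spread: it was at 10730, 946.1 and 9721 in *E2* and at 14190, 11110 and 10930 in *E1E2* (0.76, adjusted p = 0.231). In the parent line 2 of the 18 rose and 1 fell, and the steps differed at 3.

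Contractile and TGF-beta response genes were higher in *E1E2* at 8 of 14 and lower at 0 (median 0.49), beside 6.58% of all genes higher and 5.36% lower. *Acta2*, smooth muscle actin and the usual marker of myofibroblasts (chromosome 19, 34241090 to 34255590), went from 339, 346.2 and 333.9 to 1627, 1622 and 1699 (2.28 ± 0.10, adjusted p = 6.41e-13). *Tagln* (transgelin) went from 2659, 2561 and 2525 to 7121, 6902 and 6695 (1.42 ± 0.09), and *Myl9*, a myosin light chain, from 101.1, 86.09 and 90.3 to 267, 275.7 and 266.7 (1.55 ± 0.11). In these genes the spread within each group was small against the gap between the groups, which naming by the smallest p favours. In the parent line 2 of the 14 rose and 4 fell (median -0.16), with *Acta2* at -0.91 (adjusted p = 4.29e-08; WT mean 5946, *E1* mean 3166), *Tagln* at -0.87 and *Myl9* at -1.15. The difference of the steps was 3.19 for *Acta2* and passed at 8 of the 14 genes, each above 0. *E2* had the lowest mean *Acta2* of the 4 groups, and the *E1E2* mean of 1650 was below the *E1* mean. Markers of skeletal muscle summed to 42.83 to 52.28 in *E2* and 75.86 to 93 in *E1E2*, with *Des* (0.82) as the 1 of 2 that rose and the muscle factor gene *Myod1* at 0 to 0.985. *Inhba* (0.52), *Ccn1* (0.36), *Ccn2* (0.37) and *Ltbp2* were also among the rises. Exons of *Tagln* overlap opposite-strand exons over 1241 bases, those of *Fosl1* over 1163, of *Ltbp2* over 764, of *Hmgcs1* over 557, of *Lss* over 381 and of *Cdkn1a* over 273 bases, and the strand setting of the counting is not given in the sources used here.

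Matrix genes went both ways. Of 19 collagen and matrix genes 2 rose and 6 fell (median -0.04), against 0 and 11 in the parent line (over all genes 6.58% rose and 5.36% fell in A4). *Col6a1*, a collagen VI chain, went from 10270, 10860 and 9326 to 5123, 4771 and 4542 (-1.08 ± 0.07), *Col6a2* from 4880, 5914 and 4818 to 2259, 1975 and 1942 (-1.34 ± 0.09) and *Col3a1* from 16050, 18610 and 16700 to 8997, 8577 and 7900 (-1.01 ± 0.07). The parent line had -1.20, -1.71 and -1.20 for the same genes, and the differences of the steps did not pass. The fibrillar collagen genes *Col1a1* (-0.56) and *Col1a2* (-0.54) fell by less. *Tnc* (tenascin C), a matrix protein of wounds, rose from 1142, 488.8 and 1069 to 3011, 2997 and 2894 (1.73 ± 0.18), and *Postn* (periostin) rose from 61.86, 58.29 and 73.67 to 127.1, 168.3 and 131.3 (1.14 ± 0.18) while it fell in the parent line (-1.62). Fitted on the 6 libraries alone, 6 matrix genes rose and 6 fell.

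Cholesterol synthesis was lower at nearly every step measured. The genes of this pathway are activated together by the factor Srebp2. Of 22 genes tested, 20 fell and 0 rose, with a median of -0.73 and each *E1E2* library below each *E2* library in the sum of the list (46290 to 46890 against 71700 to 77430 normalized counts). The share over all genes was 5.36% lower and 6.58% higher. *Hmgcs1*, a synthase early in the pathway (chromosome 13, 119690379 to 119708260), went from 7489, 7442 and 7054 to 3440, 3702 and 3597 (-1.03 ± 0.08, adjusted p = 1.67e-09). *Lss*, the enzyme that makes lanosterol, went from 4042, 3696 and 3367 to 1874, 1980 and 1932 (-0.94 ± 0.06), *Cyp51*, the lanosterol demethylase, from 7566, 7156 and 7278 to 3839, 3874 and 3678 (-0.95 ± 0.06), and *Insig1*, the feedback inhibitor, from 4418, 4609 and 4004 to 2154, 2301 and 2175 (-0.98 ± 0.06). *Sqle* (squalene epoxidase, -0.75) also fell. *Srebf2*, which encodes Srebp2 itself (-0.35, adjusted p = 0.0113), and *Sc5d* (-0.24, adjusted p = 0.11) did not pass. In the parent line 11 of the 22 fell and 1 rose (median -0.29), with *Hmgcs1* at -0.50, *Lss* at -0.47 and *Cyp51* at -0.37. The fall was larger in A4 at 12 of the 22 by the test of the difference (*Hmgcs1* -0.53, adjusted p = 0.00132), and smaller in A4 at 0.

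The sterol regulatory element (SRE) was searched as TCACNCCAC on both strands of the same windows, where 1.05% of the 32851 promoters hold it. Of 15 list genes with a promoter 1 does, *Hmgcs1*, whose sequence up to the start is shown with the match in capitals.
Hmgcs1 (chr13:119690204-119690350, plus strand): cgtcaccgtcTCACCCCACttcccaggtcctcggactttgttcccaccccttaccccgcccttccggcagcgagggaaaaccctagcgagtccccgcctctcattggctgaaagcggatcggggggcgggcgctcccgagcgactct

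Genes of the integrated stress response, driven by the factor Atf4 when amino acids are short or eIF2 is phosphorylated, were lower. Of 16 genes 9 fell and 0 rose (median -0.48), against 13 falls and a median of -0.67 in the parent line. The share over all genes was 5.36% lower and 6.58% higher in A4, and 6.6% lower in the parent line. *Trib3*, a pseudokinase that restrains Atf4 (chromosome 2, 152337422 to 152344032), went from 1061, 938 and 957.7 to 411.8, 458.4 and 395.9 (-1.22 ± 0.08, adjusted p = 8.56e-11). *Chac1*, a glutathione-degrading enzyme, went from 757.8, 816.1 and 854.3 to 404.9, 441.8 and 393.8 (-0.97 ± 0.07), and *Asns*, asparagine synthetase, from 5908, 4986 and 5592 to 3202, 3262 and 3127 (-0.78 ± 0.09). Every *E1E2* library of these genes lay below every *E2* library, which naming *Trib3* and *Chac1* by the smallest p favours. *Atf4* fell by 0.52 and *Ddit3* (Chop) was at -0.23 (adjusted p = 0.0167). *Vldlr*, a lipoprotein receptor, fell in both lines, with -1.21 in A4 and -3.25 in the parent line, as did *Slc7a11*, the cystine transporter, with -1.02 and -3.99. These 2 differences passed the test (2.04 and 2.97, adjusted p = 1.78e-09 and 2.54e-07). Atf4 binds sites that contain TGATGNAA, which 3.45% of the 32851 promoters hold. Counted by gene, 6 of the 16 list genes (37.5%) hold it in at least 1 promoter, and some genes have more than 1. *Slc7a11* has 2 such matches and *Chac1* has 1, shown in capitals, all on stretches that end at the base before the start.
Slc7a11 (chr3:50443614-50443733, minus strand): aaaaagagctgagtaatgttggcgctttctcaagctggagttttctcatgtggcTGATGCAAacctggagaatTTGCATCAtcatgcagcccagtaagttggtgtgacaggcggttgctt
Chac1 (chr2:119351039-119351241, plus strand): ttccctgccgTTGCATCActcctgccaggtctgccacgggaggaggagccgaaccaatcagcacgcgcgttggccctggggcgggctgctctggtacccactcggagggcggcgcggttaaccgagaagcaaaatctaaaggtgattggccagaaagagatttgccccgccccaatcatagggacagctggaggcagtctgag

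The lists of this paragraph are to be read beside the share over all genes, of which 6.58% rose and 5.36% fell. Of 12 unfolded protein and heat shock genes 3 fell, *Herpud1* (-0.63), *Xbp1* (-0.47) and *Hsp90b1* (-0.45), the last of which lost its call without any 1 of 5 libraries. Of 15 immediate early genes *Junb* (0.81) and *Fosl1* (0.90) rose, and *Fosb* (-1.73), *Fos* (-1.13) and *Dusp1* fell. Of 14 hypoxia and glycolysis genes *Pfkp* (0.27) rose and *Vegfa* (-0.62), *Ndrg1* (-0.48) and *Bnip3* (-1.12) fell. Without *E2* replicate 1, *Bnip3* was at -0.45 (adjusted p = 0.155) and *Ndrg1* at -0.29 (adjusted p = 0.0625). *Bnip3* also lost its call without *E1E2* replicate 1 or 3, and *Ndrg1* and *Pfkp* each without any 1 of 5 libraries. Fitted on the 6 libraries alone, 0 of the 14 rose and 0 fell, against 1 and 4 in DESeq2 (7 at an unadjusted p under 0.05 in edgeR over all libraries). Of 14 genes of the aryl hydrocarbon receptor and oxidative stress responses *Hmox1* (haem oxygenase, 0.41) rose, and *Cyp1b1* (-0.97) and *Slc7a11* fell, and the difference of the steps passed at 7 of the 14, each above 0. Without *E2* replicate 2, *Cyp1b1* was at -0.54 (adjusted p = 0.0521), and it also lost its call without *E1E2* replicate 1 or 3. Because 4-OHT is a ligand of oestrogen receptors, their classical targets were examined: of 11 tested, *Esrra* (0.38) rose, *Igfbp4* (-0.37) and *Xbp1* fell, with the call of *Igfbp4* lost without any 1 of 4 libraries and that of *Esrra* without *E2* replicate 2 or *E1E2* replicate 1, and *Esr1*, at 2464 to 2798 normalized counts in *E2*, was at 0.12 (adjusted p = 0.259). *Pgr* and *Greb1* were too low to test. Of 13 lysosome genes *Lamp1* (0.33) and *Gpnmb* (0.25) rose, and *Gpnmb* lost its call without any 1 of 5 libraries. Of 13 mitochondrial genome transcripts 0 passed in edgeR and 0 in DESeq2 (1 at an unadjusted p under 0.05), and of 17 germline genes 2 were tested and 0 passed (0 at an unadjusted p under 0.05, 0 in DESeq2).

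**Figure D3:**
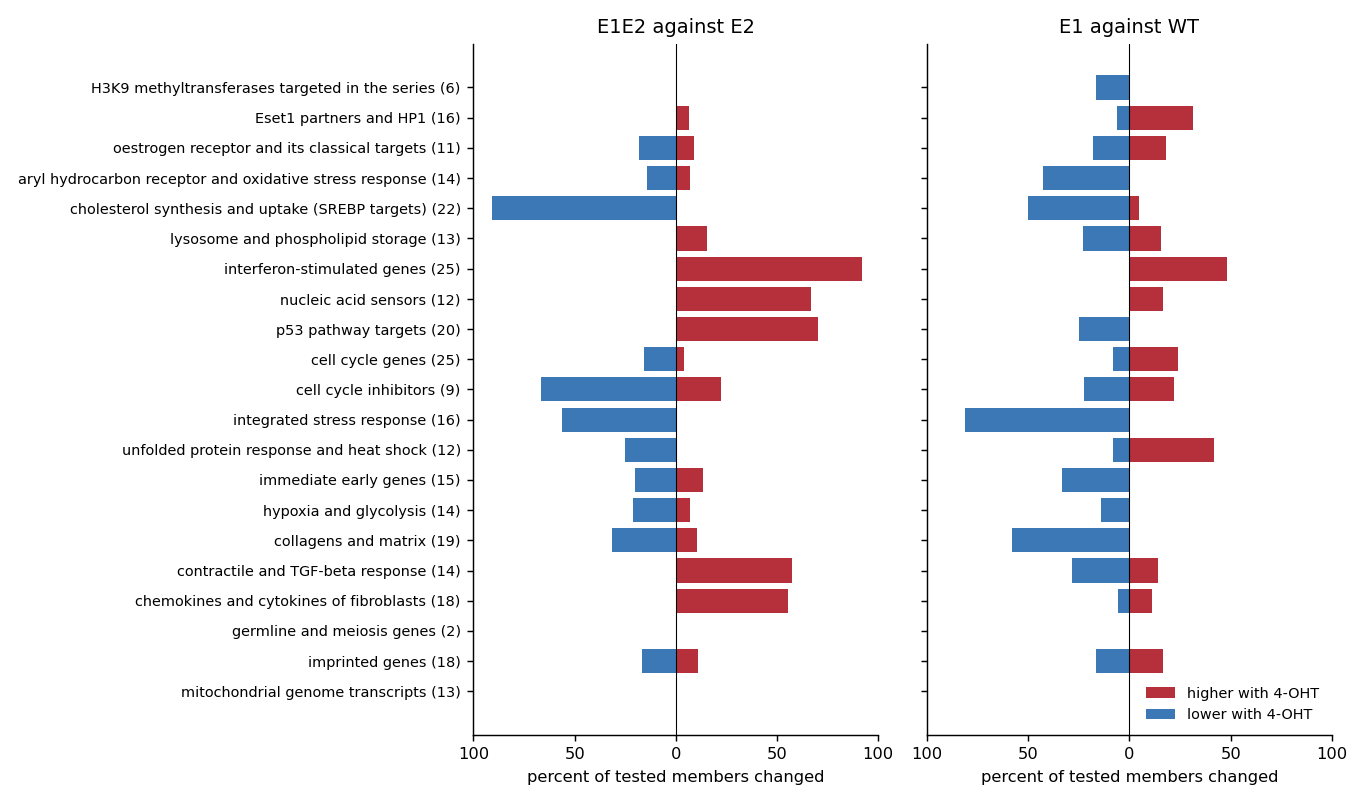
Percent of the tested members of each list that were higher or lower at an adjusted p of at most 0.01 (x) for the lists of genes (y), with *E1E2* against *E2* on the left and *E1* against WT on the right. Interferon-stimulated genes (23 of 25 higher), p53 targets (14 of 20 higher) and cholesterol synthesis (20 of 22 lower) have the longest bars on the left, and on the right p53 targets have 5 of 20 lower. The shares over all genes were 6.58% higher and 5.36% lower on the left, and 6.72% and 6.6% on the right.

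Few repeat elements changed in A4. Of 1207 elements tested, 14 (1.16%) were higher and 18 (1.49%) lower in *E1E2* than in *E2*, and with a 2-fold change 5 (0.414%) in each direction. The median over all elements was 0.0223. The parent's step had 93 elements (7.71%) higher and 8 (0.663%) lower, and the difference of the steps was above 0 at 9 (0.746%) and below 0 at 66 (5.47%). Of the 14 elements higher in A4 9 were also higher in the parent line (64.3% of the A4 list and 9.68% of the parent list), whereas of the 18 lower in A4 17 had been higher in the parent line (94.4%). By family, changes lay in ERVK (7 higher and 15 lower of 270), ERV1 (3 and 3 of 105), satellites (2 higher of 5) and B2 (2 higher of 5). ERVL (92 elements, 10 at an unadjusted p under 0.05), ERVL-MaLR (92, 2) and L1 (224, 11) had 0 in edgeR and 0 in DESeq2.

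The family totals did not pass the test. Of 58 families 0 (0%) were higher and 0 (0%) lower in edgeR, 0 in DESeq2, and 1 had an unadjusted p under 0.05. The ERV1 total was 535600, 371200 and 554200 normalized counts in *E2* and 423600, 439300 and 433500 in *E1E2* (-0.17 ± 0.12, adjusted p = 0.99). The WT libraries had a mean of 39180 and the *E1* libraries of 874800, so the untreated clone was already above WT and the treated clone below *E1*. The ERVK total was 212700, 210700 and 231600 in *E2* and 219100, 221400 and 220300 in *E1E2* (0.01 ± 0.09, adjusted p = 0.99), with means of 110500 in WT and 242900 in *E1*. The total of all LTR elements in *E1E2* was 0.949 of that in *E2*, of LINE elements 0.99, of SINE elements 1.05, of DNA transposons 1 and of satellites 1.03. Exact two-sided permutation tests of these 5 totals gave p = 0.5, 1, 0.3, 1 and 0.4, and 3 against 3 libraries cannot go below 0.1.

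**Figure D4:**
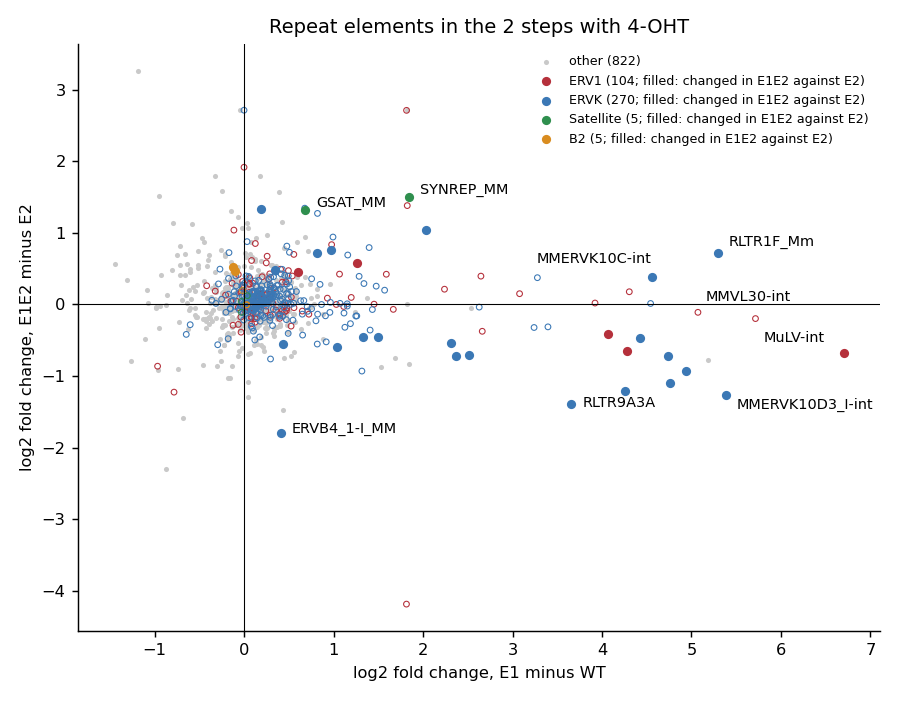
Log2 difference of *E1* over WT (x) against that of *E1E2* over *E2* (y) for 1206 repeat elements, coloured by family, with elements changed in A4 filled. *MER34B-int* is left out because 1 library sets its value. ERV1 and ERVK elements spread far along x and lie near 0 along y.

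Within this picture several internal regions of retroviruses fell. MuLV-int, the coding part of murine leukaemia virus-like copies, went from 100800, 99770 and 99580 normalized counts to 64840, 61960 and 61040 (-0.68 ± 0.11, adjusted p = 9.37e-06), with a mean of 4624 in WT and 480200 in *E1*. RLTR4_MM-int, a related ERV1 element, went from 30480, 32670 and 30330 to 20490, 19740 and 19600 (-0.64 ± 0.11), and its long terminal repeat RLTR4_Mm was at -0.41, a call lost without any 1 of the 6 libraries. Among ERVK, MMERVK10D3_I-int went from 6604, 6788 and 7588 to 2743, 2932 and 3103 (-1.26 ± 0.10, adjusted p = 1.21e-12) and ETnERV3-int from 7178, 5523 and 6926 to 2569, 2975 and 2988 (-1.20 ± 0.12). In each case all *E1E2* libraries were below all *E2* libraries and all *E2* libraries were above WT. For MuLV-int, MMERVK10D3_I-int and ETnERV3-int the first part was a condition of their choice among the largest falls. ERVB4_1-I_MM (-1.79), RLTR9A3A (-1.39), IAPLTR4 (-1.10), RLTR45-int (-0.92), RLTR10D2 (-0.73), RLTR45 (-0.72) and IAPEY3-int (-0.70) fell too. IAPEz-int, the internal region of the main IAP class, was at 22530, 21020 and 23190 against 18160, 17850 and 17540, a difference of -0.32 that did not pass (adjusted p = 0.0286).

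Rises were fewer. MMERVK10C-int went from 49080, 55110 and 55190 to 69230, 70680 and 68150 (0.38 ± 0.09, adjusted p = 0.00405), although leaving out any 1 of 5 libraries raised the adjusted p to between 0.0108 and 0.079. RLTR1F_Mm, an ERVK long terminal repeat, went from 1531, 1116 and 1518 to 2149, 2379 and 2294 (0.71 ± 0.11). RLTR44C (1.33), ERVB3_1-LTR_MM (1.04), RLTR44-int (0.76), ERVB3_1-I_MM (0.72), RLTR1B-int (0.58), RNERVK23-int (0.48) and RLTR1B (0.46) rose as well. Of these, ERVB3_1-I_MM and RLTR1B each lost the call without any 1 of 5 libraries. ERVB3_1-LTR_MM lost it without *E2* replicate 1 or *E1E2* replicate 1 or 2, and RNERVK23-int without *E2* replicate 2 or *E1E2* replicate 1 or 2. MMVL30-int, the most abundant ERV1 element in A4, was at 283500, 152100 and 301000 in *E2* and at 218200, 233900 and 230800 in *E1E2* (-0.11 ± 0.13, adjusted p = 0.975), and *E2* replicate 2 lay below and the other *E2* libraries above all *E1E2* libraries. MER34B-int passed with 5.43, but its values were 3.569, 4.484 and 4.753 against 6.896, 571.3 and 3.101, and without *E1E2* replicate 2 it was 0.23 (adjusted p = 1).

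Major satellite transcripts, from the repeats of pericentric heterochromatin, were higher after 4-OHT in both lines. GSAT_MM went from 211.8, 235.9 and 256.6 to 533.9, 621.1 and 602.6 in A4 (1.32 ± 0.12, adjusted p = 1.39e-11) and from a mean of 269.3 to 432.9 in the parent line (0.69, adjusted p = 1.53e-05), and the A4 step was larger by 0.63 (adjusted p = 0.0082). SYNREP_MM, the other satellite that rose, went from 15.47, 20.63 and 13.07 to 46.3, 42.07 and 53.75 (adjusted p = 7.23e-05), with a log2 difference of 1.84 in the parent line. B2_Mm1a, a SINE, went from 44820, 60410 and 63720 to 80110, 82980 and 79220 (0.52 ± 0.11) and B2_Mm1t from 30570, 38450 and 41130 to 50300, 51520 and 49920 (0.46 ± 0.10). *E2* replicate 1 was the lowest for both, and without it the adjusted p was 0.0769 and 0.109. B2_Mm1t also lost its call without any 1 of the *E1E2* libraries (adjusted p = 0.0134 to 0.0232), and B2_Mm1a without *E1E2* replicate 2 (adjusted p = 0.0124).

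**Figure D5:**
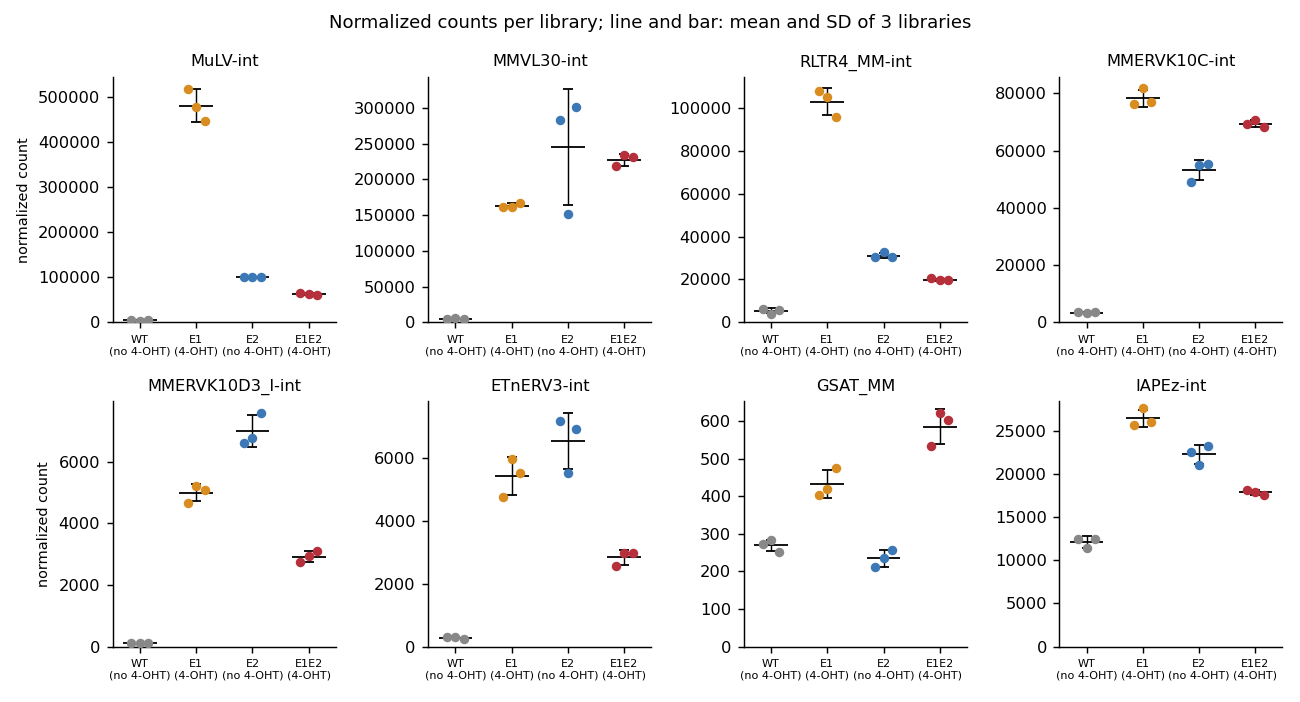
Normalized counts of 8 repeat elements (y, linear from 0) in each library of WT, *E1*, *E2* and *E1E2* (x), with points for libraries and bars for the mean ± SD. MuLV-int, RLTR4_MM-int, MMERVK10D3_I-int and ETnERV3-int are lower in all *E1E2* than in all *E2* libraries, GSAT_MM is higher, and MMVL30-int overlaps.

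The 10 genes with the smallest p of the difference of the steps had a shared outline, which that choice favours. They were low in WT and high in *E1*, high in untreated A4 and, for 8 of the 10 named, lower in A4 after 4-OHT. *Bglap3*, an osteocalcin-related gene (chromosome 3, 88368616 to 88372743), had a mean of 14.06 in WT and 1237 in *E1*, and in A4 went from 634.1, 713.8 and 638.1 to 215.7, 212.6 and 226.4 (-1.60 ± 0.08, adjusted p = 3.92e-12). *Gsta4*, a glutathione transferase, went from 4572, 4942 and 4614 to 2051, 1846 and 1923 (-1.28 ± 0.11), with 232.9 in WT and 5727 in *E1*. *Sgsm1*, a regulator of Rab GTPases, rose by 3.68 in the parent line and went from 172.5, 182.9 and 135.5 to 49.26, 43.18 and 35.15 in A4. *Dpep1*, a dipeptidase, rose by 6.54 in the parent line and fell by 1.04 in A4. *Amigo2* (-0.73), *Zfp981* (-0.85), *Fmn1* (-0.70) and *Cadm1* (-0.41) fell in A4 after rises in the parent line. *Ulbp1*, a ligand of the NKG2D receptor, was at 2673, 2246 and 2916 against 2991, 2601 and 2630 (0.07, adjusted p = 0.581), and *Mup-ps23* at -0.07 (adjusted p = 0.778).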

How the data were processed

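RNA-seq was made from ribosomal RNA-depleted total RNA with a strand-specific kit. The authors trimmed paired reads with cutadapt 1.8.1, aligned them to GRCm38 with STAR 2.5.2b and used TEtranscripts for counting over genes and repeats. The authors deposited whole-number counts per gene and per element without normalization. The strand setting and annotation release of that counting are not given in the sources used here. A repeat count sums all copies of an element and includes shared multi-mapping reads.

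The table held 47937 genes, 1445 repeat elements and 1 entry that named no feature, which was left out (at most 0.00271% of a library). Samples were grouped by the line and treatment in their titles, because the treatment field names 4-OHT for every sample. The libraries of a condition are biological replicates per the study's methods, and A4 is 1 clone. P-values rest on the spread between replicates estimated over all 24 libraries of the 8 conditions together, not on that of the A4 libraries alone. The 6 libraries of A4 had 21720323 to 28646767 gene counts, which bounds the precision at low counts.

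All 24 libraries (8 conditions of 3) were fitted with edgeR 4.0.16 (R 4.3.3, filterByExpr, TMM factors and library sizes of the genes, also for repeats) in the quasi-likelihood test with 1 coefficient per condition. P-values were adjusted by Benjamini and Hochberg within genes, elements and families. Features at an adjusted p of at most 0.01 count as changed. The script was tested on simulated data. Class totals were compared by an exact two-sided permutation test. Alternatives were DESeq2 1.42.0, other scaling factors and filters, fewer libraries, a replicate block and leaving out each library. The numbers of the replicates were checked for pairing by the correlation of same-numbered deviations (0.0579, 0.0285 and 0.00896 between *E2* and *E1E2*), all at or below 0.1, so the main fit has no block.

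Members and lists were chosen with earlier results of these data known. Named are the 6 targeted genes, the 10 largest rises and falls with libraries that do not overlap and a mean of at least 50 normalized counts in the higher group (no predicted genes), up to 4 members of each list with the smallest p, other members as a description, elements likewise, and 10 genes and 10 elements with the smallest p of the difference of the steps. Gene coordinates come from GENCODE (GRCm38) and promoter sequences from RefSeq (GRCm38.p6). Guide sequences were not used here, and some list members are counted in their lists but not reported here by name.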

Additional observations from a re-analysis of the deposited data

Results flagged for a closer look

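The response to 4-OHT differed between A4 and the parent line by the interaction term of the edgeR quasi-likelihood fit (adjusted p of at most 0.01). The difference of the steps, A4 minus parent, was above 0 at 817 genes and below 0 at 833, and above 0 at 9 repeat elements and below 0 at 66.

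Among repeat families the difference was -4.65 for ERV1, -1.12 for ERVK and -1.57 for Gypsy on the log2 scale. Among elements it was -7.38 for MuLV-int, -6.64 for MMERVK10D3_I-int, -5.91 for RLTR6C_Mm, -5.87 for RLTR45-int, -5.46 for ETnERV3-int and also -5.46 for RLTR10D2. It was -4.92 for RLTR4_MM-int, -4.89 for IAP1-MM_I-int, -4.48 for RLTR4_Mm and -4.17 for MMERVK10C-int. Each of these elements rose in the parent line, and 8 of the 10 fell in A4, with MMERVK10C-int higher and RLTR6C_Mm at -0.20 (adjusted p = 0.672). Of the 8 falls, those of RLTR4_Mm and IAP1-MM_I-int lost the call without any 1 of the 6 libraries.

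Among genes the difference was -8.04 for *Bglap3*, -7.59 for *Dpep1*, -6.33 for *Zfp981*, -5.89 for *Gsta4*, -5.62 for *Sgsm1* and -5.35 for *Mup-ps23*. It was -4 for *Ulbp1*, -3.46 for *Amigo2*, -3.15 for *Fmn1* and -3.04 for *Cadm1*. Untreated A4 cells already had more RNA of these genes and elements than WT cells, so the A4 step began from a higher level.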

How the results depend on the processing

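Of 127 named genes and changed elements, 98 kept their direction and their side of the threshold in every setting tried, 27 lost the call in at least 1 and *Setdb1* and *Setdb2*, neither of which passed, changed sign. With the threshold on the adjusted p at 0.05, 1974 genes were higher and 1643 lower, and 22 elements were higher, of which 8 by at least 2-fold. Among features with a mean normalized count above 100, 152 genes were higher and 74 lower by at least 2-fold, and 3 elements were higher. With only the 6 libraries, 792 genes were higher, 257 of them by at least 2-fold, and 3 elements were higher by at least 2-fold, while *Setdb1* was at -0.000817. With only the 12 libraries of the 2 lines, the difference of the steps passed at 381 genes above 0 and 377 below, and the parent's step had 657 genes higher, 688 lower and 5 elements lower (this fit of the parent's step was chosen after seeing the data). DESeq2 also gave 5 elements lower in the parent line. Scaling factors from repeats alone gave 29 elements lower in A4 and put the ERVK total at -0.00712, and factors from genes and repeats together put it at -0.00415.

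Leaving out 1 library at a time gave 845 to 1139 genes higher and 663 to 899 lower, and by at least 2-fold 301 to 417 and 91 to 142. It gave 6 to 15 elements higher (6 without *E1E2* replicate 2, 8 without *E2* replicate 1, 9 without *E1E2* replicate 1) and 12 to 21 lower, and by at least 2-fold 3 to 6 higher and 4 to 8 lower (8 without *E2* replicate 2). In the parent line 3 to 14 elements were lower. The difference of the steps passed above 0 at 1 to 16 elements (1 without *E2* replicate 1). The family totals in A4 ranged from -0.0122 to 0.0563 for ERVK and -0.0524 to 0.0475 for L1. The differences of the steps ranged from -0.149 to 0.0801 for ERVL, -0.141 to 0.104 for ERVL-MaLR, -0.209 to 0.026 for L1 and -0.00467 to 0.0887 for satellites. *Setdb1* ranged from -0.117 to 0.106, with -0.0106 and -0.00442 among its negative values, and *Setdb2* from -0.151 to 0.0396. The causes were not tested. With the replicate number as a block there were 1266 genes higher and 1003 lower, and 813 and 833 for the difference of the steps, and no count over all features moved by over 1.5 times. Every *E2* library correlated best with the *E1E2* library of its number, a hint from the data and not the design. Replicate 2 also had the most rRNA repeat counts in both groups, 763900 in *E2* and 687700 in *E1E2*, against 251900 to 401700 in the other A4 libraries. For snRNA repeats it had 72370 and 76380, against 28990 to 34080. In WT and *E1*, replicate 2 was not the highest for rRNA. The block fit above adjusts for the replicate number, but whether that number marks a batch was not tested. At low counts the depth limits what can be seen, as for *Cnga3*.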

Other observations

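Imprinted genes, which are expressed from 1 parental allele, moved in both directions (over all genes 6.58% rose and 5.36% fell). Of 18 tested, *Plagl1*, a zinc-finger regulator of growth, rose from 23.79, 21.52 and 40.4 to 67.97, 65.32 and 67.19 normalized counts (1.25, and also 1.25 in the parent line), and *Cdkn1c* rose. *Peg13* (-0.70), *Snrpn* (-1.11) and *Grb10* (-0.28) fell. *Snrpn* shares exons on the same strand with *Snurf*, so its count is uncertain.

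Markers of cell types were examined beside these (over all genes 6.58% rose and 5.36% fell). Of 11 fibroblast markers, *Pdgfra* (1.11) and *Thy1* (0.86) rose, and the collagen genes *Col3a1*, *Col1a1* and *Col1a2* fell, with a sum of 159800 to 180900 in *E2* and 142500 to 151200 in *E1E2*. Of 4 epithelial markers, *Cldn4* (1.65) rose and *Krt8* (-0.85) fell, and the sum was 229.6 to 289.7 in *E2* and 148.8 to 209.3 in *E1E2*. Of 4 endothelial markers *Kdr* rose, with a sum of 8.071 to 11.9 against 16.75 to 29.89 and *Tie1* at 0. Of 5 neural and glial markers the tubulin gene *Tubb3* rose (sum 16490 to 20160 against 20360 to 22720). The adipocyte markers summed to 51.15 to 55.84 in *E2* and 64.22 to 65.12 in *E1E2*, with *Adipoq* at 0 to 2.07, and the pluripotency factor gene *Nanog* lay between 0.985 and 8.97.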
